A study of Mus musculus with 9 samples.

Results

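The lysosomal cathepsins Ctsb, Ctsc, Ctsd, Ctsh, Ctsk, Ctsl, Ctss and Ctsz, the asparaginyl endopeptidase legumain (Lgmn) and the secreted cathepsin inhibitor cystatin C (Cst3) were followed in mouse dendritic cells. They were taken as all probe sets whose symbol in the platform annotation is one of these 10 gene names, which gave 16 of the 12488 probe sets of one Affymetrix array design and 13 of the 12654 of another, with 12 probe set names on both. Total RNA of day 10 dendritic cells was hybridised from 3 groups of mice: CIITA-/-, named for the loss of CIITA, the transcriptional activator of MHC class II genes; IAb-/-, named for the loss of the class II beta chain of I-A; and wild-type B6. Each group had 3 arrays, numbered as experiments 1 to 3 in the titles, with number 1 run on the larger design and numbers 2 and 3 on the smaller. The title of 1 CIITA-/- array had no number; as its group already held 1 and 3, it was taken as 2. The labels name no age, sex, culture condition, allele construction or number of animals. They also leave unsaid whether the arrays within a group are independent animals or cultures, so each p-value reflects array-to-array spread that may be technical.

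Dendritic cells take up proteins and break them into peptides inside acidic endosomes and lysosomes. MHC class II molecules reach those compartments bound to the invariant chain, which proteases cut in steps until only a short peptide, CLIP, remains in the groove and can be exchanged for an antigen peptide. Most cathepsins are papain-like cysteine proteases, Ctsd is an aspartic protease, and legumain cuts after asparagine. Cystatins block papain-like enzymes.

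Sequence upstream of the start was read from RefSeq on GRCm38.p6 for 8 of the 10 genes, in 9 windows of the 250 bases before an annotated start (Lgmn has 2 such starts); Ctsb and Ctsh were not in the table. The windows were searched on both strands for CACGTG, the core that the lysosomal regulator TFEB and other E-box proteins recognise, and for GAAA followed after any 2 bases by a second GAAA, the core of the interferon-stimulated response element. CACGTG was found in 3 of the 9 windows, of Ctsd, Ctsl and Lgmn, and in 1978 of all 32851 windows of that length (6.02%). For Lgmn it lies in the window at chr12:102439093-102439342 and not in that of the other start, at chr12:102439729-102439978. The paired GAAA was found in 1 of the 9, of Ctss, and in 978 of all windows (2.98%). The Ctsd and Ctss windows are given whole because Ctsd read above B6 in both mutants and Ctss makes CLIP, and Ctsl and Lgmn by the 30 bases around the match; capitals mark the matches, and each runs 5′ to 3′ on the gene's strand.
Ctsd, chr7:142387828-142388077, minus strand: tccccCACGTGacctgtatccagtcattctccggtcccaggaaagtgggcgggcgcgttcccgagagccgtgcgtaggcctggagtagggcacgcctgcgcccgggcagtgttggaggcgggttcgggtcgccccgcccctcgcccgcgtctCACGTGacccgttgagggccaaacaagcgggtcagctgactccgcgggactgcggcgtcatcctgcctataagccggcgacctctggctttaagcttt
Ctss, chr3:95526536-95526785, plus strand: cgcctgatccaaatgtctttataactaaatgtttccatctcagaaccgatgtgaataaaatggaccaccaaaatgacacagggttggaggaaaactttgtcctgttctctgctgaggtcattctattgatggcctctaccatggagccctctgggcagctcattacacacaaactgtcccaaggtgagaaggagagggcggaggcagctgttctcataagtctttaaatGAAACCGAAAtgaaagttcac
Ctsl, chr13:64370739-64370768, minus strand: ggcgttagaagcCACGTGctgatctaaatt
Lgmn, chr12:102439124-102439153, minus strand: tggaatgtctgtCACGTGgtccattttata
The Ctsd window holds CACGTG in 2 places, 245 to 240 and 98 to 93 bases before the start, and the Ctss match lies 21 to 12 bases before its start. A match describes the letters only; binding was not measured.

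Levels are intensities in arbitrary units as deposited, and between 21.0% and 26.4% of those on an array lie below 0. A noise limit was therefore set where 95% of the negative values are smaller in size, 1701 for experiments 2 and 3 and 2203 for experiment 1. Of the 16 probe sets, 12 lay above it on all 6 arrays of experiments 2 and 3, 1 (Ctsc, 101020_at) on some and 3 on none. The labels could not be checked at the targeted genes: Ciita read 1601 and 1639 on the arrays labelled CIITA-/-, 398 and 644 on those labelled IAb-/- and 623 and 933 on B6 arrays, all under the noise limit, and H2-Ab1 read 615 and 112 in CIITA-/-, 16070 and 9621 in IAb-/- and 17261 and 21348 in B6 cells. Where these probe sets lie relative to the deleted parts is not known here. All 14 dendritic cell markers on the array were above the noise limit on at least 1 array, including Itgax at 33205 to 44986. Of these, H2-Aa was under it on both CIITA-/- arrays (-1520 and -2254). It read 46977 and 29271 in IAb-/- and 51407 and 53578 in B6 cells. Its CIITA-/- minus B6 difference was log2 -8.73 (limma adjusted p = 0.0081). Above it too were 6 of 13 macrophage markers, 4 of 5 of B cells, 3 of 10 of neutrophils and 1 each of osteoclasts (Acp5), red cell precursors (Klf1, at 6077 to 8752) and fibroblasts (Col1a2). None of 6 T cell or 7 mast cell markers was. In these lists a gene was counted if 1 of its probe sets passed the limit on at least 1 of the 6 arrays. Other probe sets of a counted gene could stay under it. The other Col1a2 probe set and the other Pax5 probe set were negative on all 6 arrays, and most Ighm probe sets never passed. Ms4a1 passed only on the 2 B6 arrays (1856 and 1873) and Cd79b on 4 arrays. The counts therefore do not show that the B cell or fibroblast genes were expressed. Spike-in controls differed between arrays. On the IAb-/- arrays of experiments 2 and 3 they stood at 1.358 and 0.753 times the mean of the 6 arrays, against 0.946 to 1.059 on the other 4. Their geometric means on these IAb-/- arrays were 20359 and 11296. Other probe sets between 10000 and 20000 had a median log2 difference of 0.00 between the same arrays. The bright end differed too, with a median of 0.54 above 100000.

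The proteases that finish invariant chain processing came first. Ctss, the enzyme that makes CLIP in dendritic cells and B cells, read 81684 and 76151 on the CIITA-/- arrays of experiments 2 and 3, 90958 and 67546 on the IAb-/- arrays and 78488 and 76025 on the B6 arrays. The groups overlapped, and the 2 IAb-/- arrays were the highest and the lowest of the 6. Cells of CIITA-/- and B6 mice differed by log2 0.03 (SE 0.19, 95% interval -0.48 to 0.54) and cells of IAb-/- and B6 mice by log2 0.02 (SE 0.19, interval -0.49 to 0.53). Neither passed (limma on 2 arrays per group, Benjamini-Hochberg adjusted p = 0.99 and 1.0). With spike-in scaling both differences turned negative (-0.11 and -0.07), close to the median of all probe sets on that scale (-0.12 and -0.09). In experiment 1, Ctss read 62694 in CIITA-/-, 72445 in IAb-/- and 49219 in B6 cells, so the mutant arrays were higher by log2 0.35 and 0.56 there. Because total RNA of many cells was measured together, fewer cells of a type and less RNA per cell cannot be told apart for this or any later value.

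Ctsl, which cuts the invariant chain in the thymic cortex and is an endopeptidase of lysosomes in many cells, differed most between the mutants in experiments 2 and 3 among the probe sets above the noise limit. Its values in experiments 2 and 3 were 15774 and 13425 in CIITA-/-, 22290 and 21097 in IAb-/- and 16969 and 16611 in B6 cells, so the 3 groups did not overlap, with IAb-/- highest and CIITA-/- lowest. CIITA-/- averaged 14599 ± 1661 and IAb-/- 21693 ± 843 (SD, n = 2 each), 0.67-fold (log2 -0.58, SE 0.15, interval -0.97 to -0.18), which had an unadjusted limma p of 0.014 and an adjusted p of 0.75. Set against B6 (16790 ± 253), CIITA-/- differed by log2 -0.21 (adjusted p = 0.93) and IAb-/- by log2 0.37 (interval -0.03 to 0.77, adjusted p = 1.0). Experiment 1 ordered the groups otherwise: 22967 in CIITA-/-, 18307 in IAb-/- and 16550 in B6 cells. Of the 3 Ctsl comparisons, the higher value in IAb-/- than in B6 cells held in all 3 experiments (log2 0.15, 0.39 and 0.34). It did not hold with spike-in scaling (0.09, -0.13 and 0.67), which takes log2 0.52 from every probe set in experiment 2. The difference between the mutants was log2 0.33 in experiment 1 and -0.50 and -0.65 in experiments 2 and 3.

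Legumain, which opens the breakdown of some antigens and matures other lysosomal proteases, varied little between groups. Lgmn read 14423 and 16149 in CIITA-/-, 16686 and 15698 in IAb-/- and 15112 and 15660 in B6 cells, with CIITA-/- values on both sides of B6 and both IAb-/- values just above B6. In experiment 1 it was lower in both mutants, at 23213 in CIITA-/- and 21477 in IAb-/- against 24164 in B6 cells. The fitted differences were log2 -0.01 (CIITA-/- minus B6), 0.07 (IAb-/- minus B6, -0.02 with spike-in scaling) and -0.08 (CIITA-/- minus IAb-/-), each with SE 0.14.

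**Figure D1:**
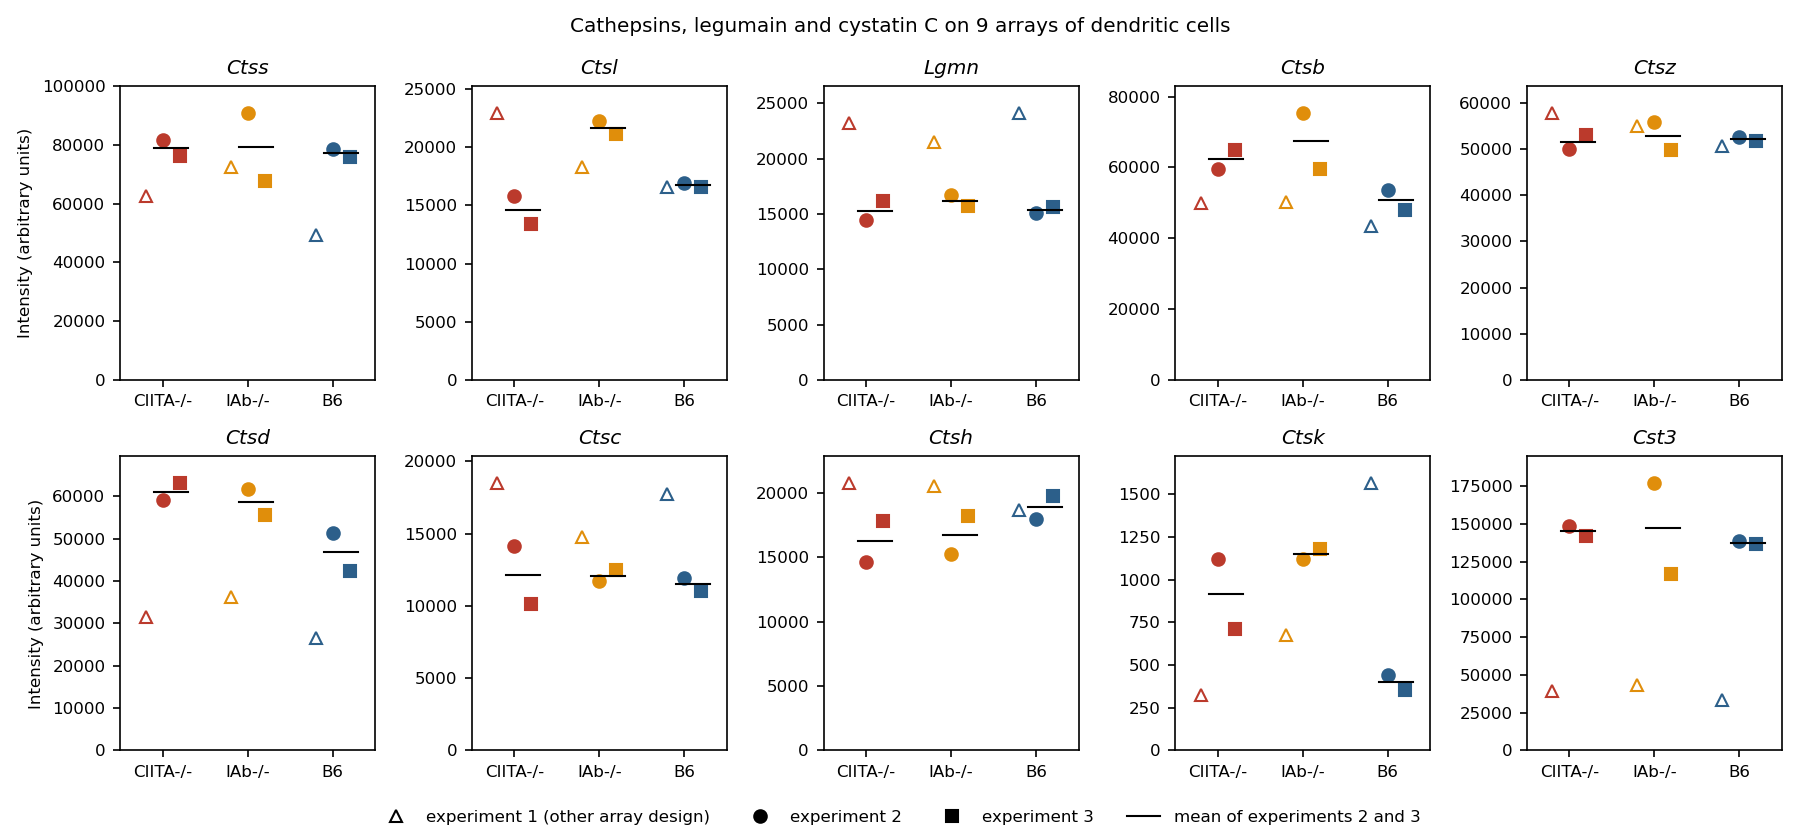
Intensity of the 10 genes in arbitrary units (linear axes from 0) on each of the 9 arrays, by group, at the probe set 94831_at for Ctsb, 101019_at for Ctsc, 99586_at for Cst3 and the only one of its design for each other gene. Open triangles are experiment 1 on the other array design, filled circles and squares are experiments 2 and 3, and the line is the mean of experiments 2 and 3; on the deposited scale Ctsd of both mutants lies above B6 in each experiment, Ctsl is highest in IAb-/- cells of experiments 2 and 3, and the Ctsk values, from different probe sets in the 2 designs, all lie under the noise limit.

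Ctsd, the aspartic endopeptidase of lysosomes, read above B6 in both mutants in each experiment on the deposited scale. Its values in experiments 2 and 3 were 59118 and 63135 in CIITA-/- and 61758 and 55527 in IAb-/- cells, against 51396 and 42378 in B6 cells, and in experiment 1 31602 in CIITA-/- and 36208 in IAb-/- against 26597 in B6 cells. Every mutant array was above every B6 array of its design, and the 2 mutants overlapped. CIITA-/- averaged 61126 ± 2841 and B6 46887 ± 6376 (SD, n = 2 each), 1.31-fold (log2 0.39, SE 0.17, interval -0.05 to 0.83), and limma gave an adjusted p of 0.89. IAb-/- averaged 58642 ± 4406, 1.25-fold of B6 (log2 0.33, SE 0.17, interval -0.11 to 0.77, adjusted p = 1.0).
Within experiments 1, 2 and 3 the Ctsd difference was log2 0.25, 0.20 and 0.58 for CIITA-/- minus B6 and 0.45, 0.26 and 0.39 for IAb-/- minus B6, which share the B6 arrays. A fit over all 9 arrays with the experiment as a replicate block gave log2 0.34 (interval 0.03 to 0.65, unadjusted p = 0.037) and 0.37 (interval 0.05 to 0.68, unadjusted p = 0.029), with adjusted limma p of 0.89 and 0.92. The difference depended on the scale and on the B6 arrays. With spike-in scaling the fit to experiments 2 and 3 gave log2 0.25 for CIITA-/- and 0.23 for IAb-/- minus B6, where the median of all probe sets was -0.12 and -0.09, against 0.01 each on the deposited scale. The IAb-/- difference in experiment 2 alone turned to -0.26. There the scaling takes log2 0.52 from every probe set, and 754 other bright probe sets had a median of 0.06 before it. The block over 9 arrays with spike-in scaling, added after the data were seen, gave log2 0.16 (interval -0.49 to 0.82) for CIITA-/- and 0.29 (interval -0.37 to 0.94) for IAb-/- minus B6. Without the B6 array of experiment 3, the lowest of the 6, the differences on the deposited scale were 0.25 and 0.19, and without the B6 array of experiment 2 they were 0.53 and 0.47.

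Ctsb, an endopeptidase that also removes dipeptides from the C-terminus, has 4 probe sets on the design of experiments 2 and 3. The brightest, 94831_at, read 59680 and 64832 in CIITA-/- and 75445 and 59443 in IAb-/- cells, against 53598 and 48114 in B6 cells, with no overlap between either mutant and B6. It averaged 62256 ± 3643 in CIITA-/-, 67444 ± 11315 in IAb-/- and 50856 ± 3878 in B6 cells (SD, n = 2 each), giving log2 0.29 (interval -0.19 to 0.77, adjusted p = 0.93) for CIITA-/- and 0.40 (interval -0.08 to 0.88, adjusted p = 1.0) for IAb-/- minus B6 in limma. In experiment 1 it read 49853 in CIITA-/-, 50216 in IAb-/- and 43541 in B6 cells.
The dimmer Ctsb probe sets were less even. At 92256_at, values were 2638 and 2943 in CIITA-/-, 2812 and 3065 in IAb-/- and 2689 and 2568 in B6 cells, so IAb-/- was above B6 by log2 0.06 and 0.26 in experiments 2 and 3 while CIITA-/- overlapped B6. Experiment 1 had B6 highest there, with 4134 in CIITA-/- and 3653 in IAb-/- against 5534 in B6 cells. At 95608_at all groups overlapped (2553 and 3533 in CIITA-/-, 2708 and 4098 in IAb-/-, 3170 and 3366 in B6 cells), and experiment 1 again had B6 highest (6153 in CIITA-/-, 5372 in IAb-/- and 7780 in B6 cells). The fourth, 162271_f_at, was negative on all 6 arrays and was not tested.

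Ctsz, which removes single residues from the C-terminus, stayed within a narrow range: 49925 and 52931 in CIITA-/-, 55777 and 49810 in IAb-/- and 52648 and 51770 in B6 cells, with the groups overlapping. Its log2 differences from B6 were -0.02 and 0.01 (SE 0.14 each). Ctsh, mainly an aminopeptidase, was below both B6 arrays in experiments 2 and 3 of CIITA-/- cells, with 14673 and 17850 in CIITA-/-, 15288 and 18242 in IAb-/- and 17994 and 19807 in B6 cells, and log2 -0.22 and -0.18 (SE 0.18 each). In experiment 1 both mutants were above B6 for Ctsz (57846 in CIITA-/- and 54889 in IAb-/- against 50553 in B6) and for Ctsh (20766 in CIITA-/- and 20527 in IAb-/- against 18681 in B6).

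Ctsc, a dipeptidyl peptidase that activates the granule serine proteases of immune cells, showed no shared pattern. Its brightest probe set, 101019_at, read 14117 and 10126 in CIITA-/-, 11724 and 12453 in IAb-/- and 11925 and 11056 in B6 cells, so the 2 CIITA-/- arrays were the highest and the lowest. Experiment 1 gave 18480 in CIITA-/-, 14787 in IAb-/- and 17713 in B6 cells. The dimmer 101020_at read between 1424 and 2232 over the 6 arrays, overlapping in all groups, and in experiment 1 3060 in CIITA-/- and 2046 in IAb-/- against 3730 in B6 cells (log2 -0.29 and -0.87). The third, 161251_f_at, lay under the noise limit on all 6 arrays (344 to 563).

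Ctsk, the collagen-degrading cathepsin of osteoclasts, had the largest fitted differences, on values under the noise limit. Its probe set 160406_at read 1120 and 708 in CIITA-/- and 1122 and 1181 in IAb-/- cells, against 444 and 354 in B6 cells, so the mutants did not overlap B6, yet none of the 6 reached the noise limit of 1701. The log2 differences were 1.17 (SE 0.27) and 1.54 (SE 0.27), with unadjusted limma p of 0.0093 and 0.003 and adjusted p of 0.60 and 0.57. A generalised log, which shrinks differences near 0, gave log2 0.40 and 0.58, and spike-in scaling gave 1.02 (interval -0.05 to 2.10) and 1.44 (interval 0.37 to 2.52). Experiment 1 held another Ctsk probe set, 97493_at, in the opposite order, with 324 in CIITA-/- and 674 in IAb-/- against 1564 in B6 cells, again under the limit. Among osteoclast markers, Acp5, an acid phosphatase also found in macrophages, was above the limit on all 6 arrays, at 3098 and 3715 in CIITA-/-, 3360 and 3185 in IAb-/- and 2506 and 3754 in B6 cells. Calcr, Itgb3 and Mmp9 were under it on all 6, and the 4 markers summed to 3225 to 3993 in CIITA-/-, 3455 to 3828 in IAb-/- and 2973 to 4128 in B6 cells.

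Cst3, the inhibitor, has probe sets among the brightest of the array, where the arrays differed. The probe set 99586_at read 148843 and 141996 in CIITA-/-, 176921 and 116998 in IAb-/- and 138335 and 136897 in B6 cells, so both CIITA-/- arrays were just above B6 while IAb-/- fell on both sides. A second probe set, 161522_i_at, showed the same layout, with 100026 and 111894 in CIITA-/-, 126756 and 76862 in IAb-/- and 91912 and 87438 in B6 cells. The CIITA-/- minus B6 differences were log2 0.08 (SE 0.23) and 0.24 (SE 0.27) with adjusted limma p of 0.98 and 0.93, and those of IAb-/- minus B6 were 0.06 and 0.14, adjusted p 1.0 each. In experiment 1, 99586_at read 39454 in CIITA-/-, 43399 in IAb-/- and 33284 in B6 cells. After quantile normalization the values were 142373 and 141085 in CIITA-/-, 141085 and 142373 in IAb-/- and 144811 and 154514 in B6 cells, so both mutants then lay below B6, by log2 -0.08 each. At 161522_i_at quantile normalization left 97222 and 110219 in CIITA-/- and 107424 and 89462 in IAb-/- against 95165 and 92879 in B6 cells. CIITA-/- was still above B6 there (log2 0.14) and IAb-/- on both sides (0.06).
Cd74, the invariant chain these proteases cut, had the same layout on the IAb-/- arrays, with 146496 and 142067 in CIITA-/-, 181665 and 118974 in IAb-/- and 138308 and 129594 in B6 cells. In experiment 1 Cd74 read 34924 in CIITA-/- and 28200 in IAb-/- against 14649 in B6 cells, so both mutants were above B6 there.

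The spread of the 2 IAb-/- arrays followed the level of a probe set. Other probe sets between 10000 and 20000 had a median log2 difference of 0.00 (602 probe sets) between the IAb-/- arrays of experiments 2 and 3, those between 50000 and 100000 one of 0.37 (102) and those above 100000 one of 0.54 (36). Among the proteases and their inhibitor the same difference was 0.60 for Cst3 at 99586_at, 0.43 for Ctss and 0.34 for Ctsb at 94831_at, but 0.15 for Ctsd and 0.08 for Ctsl. With the IAb-/- array of experiment 2 left out and then that of experiment 3, the IAb-/- minus B6 difference was log2 -0.23 and 0.36 for Cst3 at 99586_at and -0.19 and 0.24 for Ctss, so their sign rests on which array is kept, whereas it was 0.23 and 0.57 for Ctsb 94831_at, 0.25 and 0.40 for Ctsd and 0.33 and 0.41 for Ctsl. Its further part in the comparisons was not tested.

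**Figure D2:**
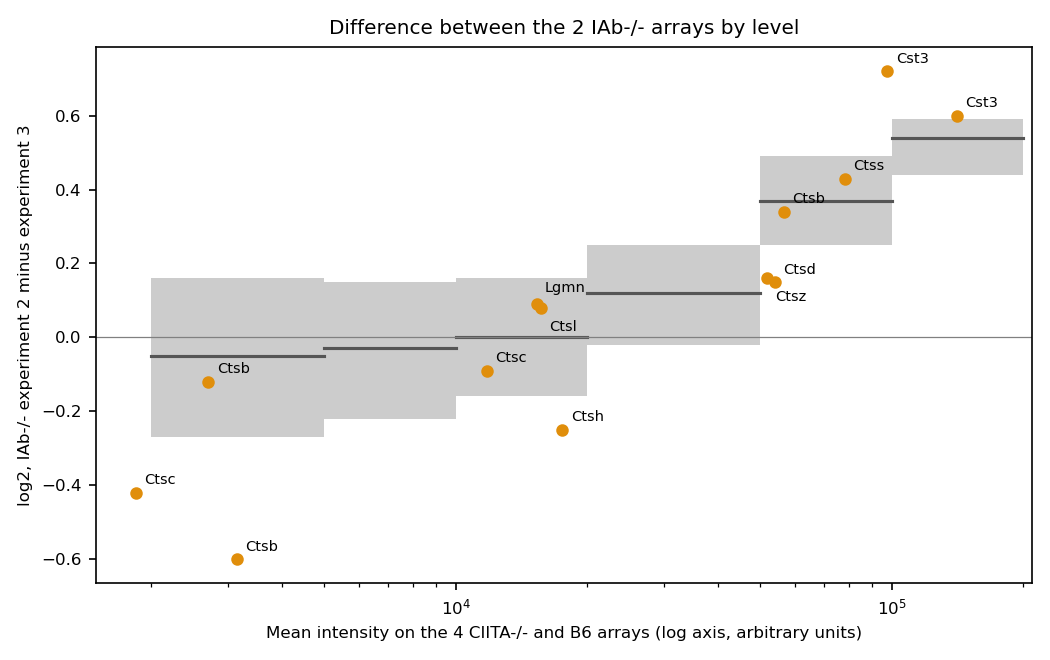
Log2 difference between the IAb-/- arrays of experiments 2 and 3 against the mean intensity on the 4 CIITA-/- and B6 arrays (log axis). Points are the member probe sets above the noise limit on at least 1 array, dark lines and grey boxes the median and quartiles of all other probe sets in bins of level; Cst3 and Ctss sit high with the bright bins and Ctsd and Ctsz below them.

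Counted over all probe sets of these genes, none of the 15 tested was called at an adjusted p under 0.05 in limma in any comparison, and 1 of 15 reached an unadjusted p under 0.05 in each (Ctsk in both comparisons with B6, Ctsl between the mutants). Across all 9312 probe sets tested the called share was 0.0966% for CIITA-/- minus B6, 0.0107% for IAb-/- minus B6 and 0.0215% for CIITA-/- minus IAb-/-, and the share under the unadjusted threshold 5.86%, 4.31% and 4.54%. The median log2 difference of the 15 was 0.03, 0.07 and -0.05, beside 0.01, 0.01 and 0.00 over all tested.
For CIITA-/- against B6, 5 of 15 had both arrays above both B6 arrays (2 of Cst3, and Ctsb 94831_at, Ctsd and Ctsk) and 2 below (Ctsh and Ctsl), where all tested probe sets gave 21.0% and 17.8%. For IAb-/- against B6 the counts were 6 above (Ctsb 92256_at and 94831_at, Ctsd, Ctsk, Ctsl and Lgmn) and 1 below (Ctsc 161251_f_at), against 16.5% and 15.8%. Between the mutants, 0 were above and 2 below in CIITA-/- cells (Ctsk and Ctsl), against 13.3% and 12.6%.

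**Figure D3:**
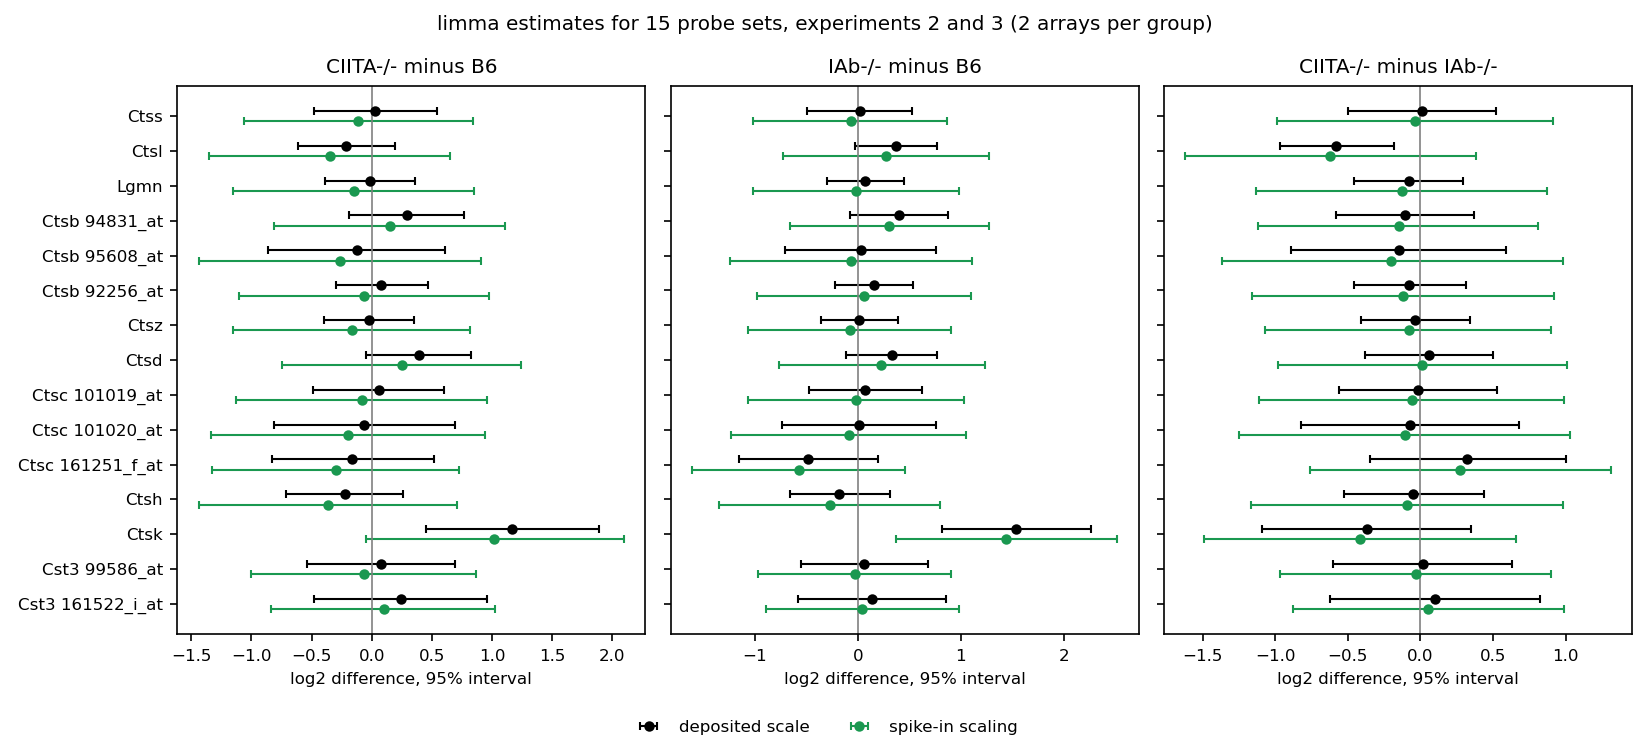
Log2 differences with 95% intervals for the 15 tested probe sets in the 3 comparisons of experiments 2 and 3 (2 arrays per group), on the deposited scale (black) and after spike-in scaling (green). Most intervals cross 0; on the deposited scale the exceptions are Ctsk against B6 in both mutants and Ctsl between the mutants, and with spike-in scaling only Ctsk in IAb-/- minus B6.

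Direction over the 3 experiments was read from the 12 probe sets on both designs. For CIITA-/- minus B6, 4 were higher in all 3 experiments (Cst3, Ctsb 94831_at, Ctsd and Ctss, the last by log2 0.00 in experiment 3) and 0 lower, against 13.6% and 12.6% of the 7610 probe sets on both designs. All 4 are among the 9 of the 12 that lie above 10000 on all 9 arrays, and over the 763 such probe sets the shares were 31.6% and 7.86%. For IAb-/- minus B6, 3 were higher in all 3 (Ctsb 94831_at, Ctsd and Ctsl) and 0 lower, against 12.7% and 12.2% of all, and 17.2% and 10.1% of the bright ones. Between the mutants none kept 1 direction, against 10.4% and 11.9%. With spike-in scaling 0 of the 12 were higher in all 3 experiments in either comparison with B6, against 3.84% and 4.55% of all. By contrast, 5 were lower in all 3 in CIITA-/- than in B6 cells (Cst3, Ctsb 95608_at, Ctsh, Ctsz and Lgmn), where all probe sets gave 38.5%. In IAb-/- minus B6, 0 were lower in all 3 (7.33%). In CIITA-/- minus B6, Cst3 became log2 -0.01, -0.06 and -0.07, Ctss 0.10, -0.10 and -0.12, Ctsb 94831_at -0.06, -0.01 and 0.31, and Ctsd -0.00, 0.04 and 0.45. In IAb-/- minus B6, Ctsb 94831_at, Ctsd and Ctsl were lower in experiment 2 (-0.03, -0.26 and -0.13) and higher in the others. For that comparison the scaling subtracts log2 0.05, 0.52 and -0.33 from every probe set in experiments 1, 2 and 3. Before it, 754 other bright probe sets had medians of 0.08, 0.06 and -0.03.

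**Figure D4:**
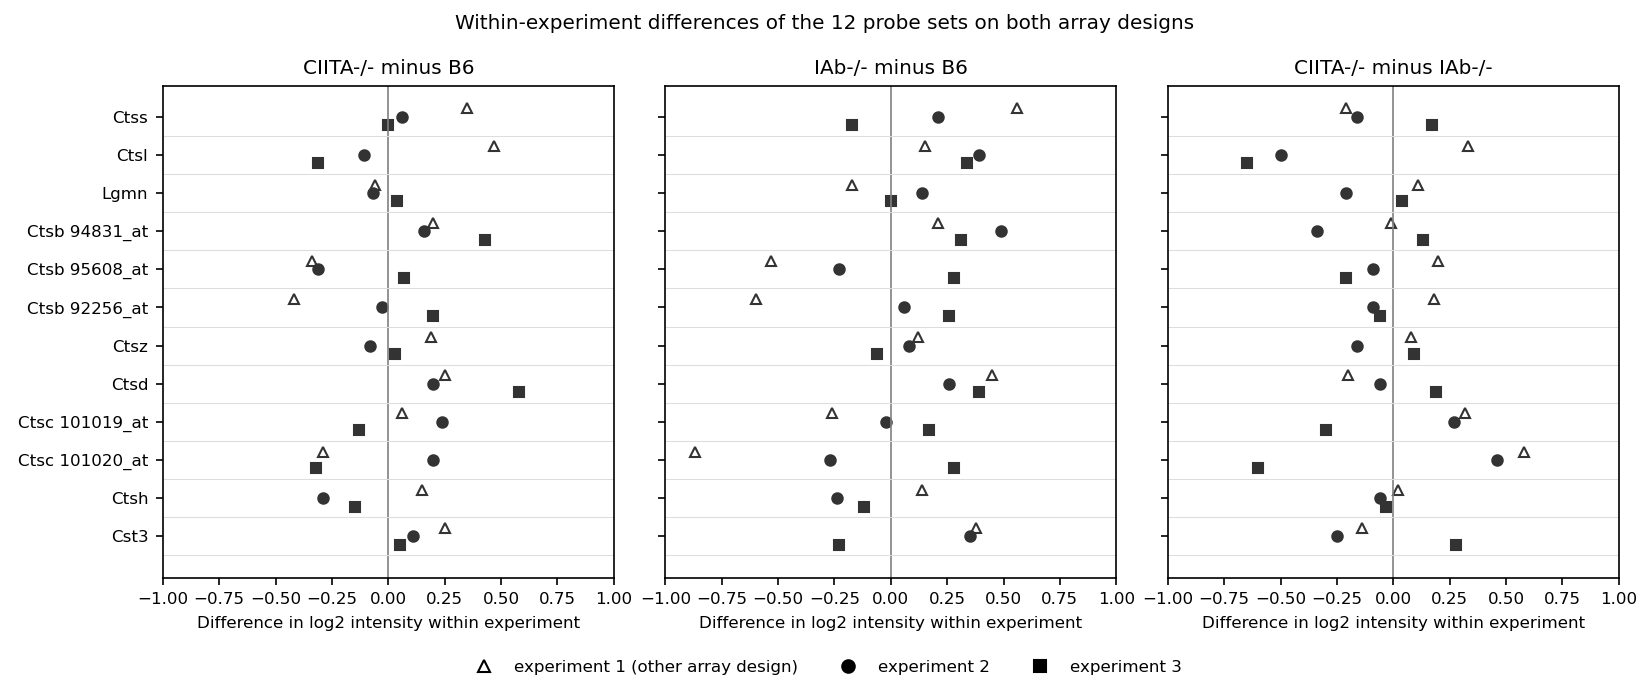
Differences in log2 intensity within experiments 1 (open triangles), 2 (circles) and 3 (squares) for the 12 probe sets on both designs, in the 3 comparisons. All 3 symbols lie to the right of 0 for Ctsd and Ctsb 94831_at in both comparisons with B6 and for Ctsl in IAb-/- minus B6, while the dimmer Ctsb and Ctsc probe sets scatter to both sides. With spike-in scaling, not drawn, experiment 2 turns negative for Ctsd, Ctsb 94831_at and Ctsl in IAb-/- minus B6. There the scaling takes log2 0.52 from every probe set.

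Other proteins of the lysosome gave no called gene. Among 8 tested other lysosomal proteases, 0 were called in either comparison with B6 in limma, with 1 and 0 at an unadjusted p under 0.05. Over all 9312 probe sets tested that share was 5.86% for CIITA-/- and 4.31% for IAb-/- minus B6. The 1 protease under it was Dpp7, a dipeptidyl peptidase, which averaged 3897 ± 308 in CIITA-/-, 3592 ± 129 in IAb-/- and 2879 ± 107 in B6 cells (SD, n = 2 each; log2 0.44 and 0.32), with the opposite sign in experiment 1 (-0.24 and -0.50). The serine carboxypeptidases Scpep1 (log2 0.13 in CIITA-/- and 0.37 in IAb-/- minus B6) and Ctsa (0.12 and 0.24) and the aspartic protease Napsa (0.10 and -0.12) differed less in CIITA-/- cells. Of 5 tested other inhibitors of cysteine proteases, 0 were called (0 at an unadjusted p under 0.05). Only 2 of them were above the noise limit: Cstb, the intracellular cystatin B, at 49835 ± 4098 in CIITA-/-, 53292 ± 464 in IAb-/- and 45929 ± 4517 in B6 cells, and the cystatin Cst9 (log2 0.33 and 0.25 from B6, SE 0.32 each).
Of 27 tested hydrolases, membrane proteins and regulators of lysosomes, 0 were called and 3, Gaa, Lipa and Npc1, had an unadjusted p under 0.05 in limma in each comparison with B6, beside 5.86% and 4.31% of all tested. In that list 19 read higher and 8 lower in each mutant, with a median of log2 0.12 in CIITA-/- and 0.05 in IAb-/-. The median over all tested probe sets was 0.01 in each, and the medians of the list in experiment 1 were -0.10 and -0.24. The acid alpha-glucosidase Gaa averaged 1882 ± 683 in CIITA-/-, 1753 ± 392 in IAb-/- and 743 ± 52 in B6 cells. Its log2 differences from B6 were 1.29 and 1.22 (adjusted limma p of 0.63 and 0.87), and it had no value in experiment 1. B6 was under the noise limit, and by these SDs so was the lower array of each mutant. The acid lipase Lipa averaged 1732 ± 543 in CIITA-/-, 1581 ± 74 in IAb-/- and 916 ± 95 in B6 cells (log2 0.89 and 0.79), again near or under that limit, and read -0.16 and -0.06 in experiment 1. The cholesterol transporter Npc1 averaged 14204 ± 78 in CIITA-/-, 14118 ± 1323 in IAb-/- and 10667 ± 595 in B6 cells (log2 0.41 and 0.40; 0.05 and -0.06 in experiment 1). The beta-galactosidase Glb1 averaged 2598 ± 194 in CIITA-/-, 2631 ± 2 in IAb-/- and 3396 ± 392 in B6 cells, and was lower in experiment 1 too (log2 -0.46 and -1.38).

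On the deposited scale, markers of macrophages, cells rich in these proteases, summed higher in both mutants, beside Ctsd and Ctsb, in experiments 2 and 3. The 13 markers summed, with negative values as 0, to 44282 to 49736 in CIITA-/- and 44707 to 55590 in IAb-/- against 35490 to 40627 in B6 cells. The mutants did not overlap B6 on that scale, and the sums were not spike-in scaled. Sums of other lists also lay above B6 without overlap, each in a single mutant. In CIITA-/- cells these were fibroblast markers (8694 to 9644 against 6823 to 7305), T cell markers and the lysosome hydrolase list. In IAb-/- cells they were mast cell markers (2369 to 2457 against 1587 to 1972), neutrophil markers and the other cysteine protease inhibitors. No T cell or mast cell marker passed the noise limit. Spike-in controls stood at 0.946 and 0.947 times the mean on the B6 arrays. They stood at 1.059 and 1.031 on the CIITA-/- arrays and at 1.358 and 0.753 on the IAb-/- arrays. Of 12 tested markers 6 were above the noise limit and 0 were called in limma in any comparison, none with an unadjusted p under 0.05. Lyz2 made up much of the sum at 17725 and 22732 in CIITA-/- and 27047 and 18616 in IAb-/- against 15191 and 14154 in B6 cells, and Cd14, Cd68, Csf1r, Fcgr1 and Msr1 were above the limit on all 6 arrays. The other 7 (Adgre1, C1qa, C1qb, C1qc, Marco, Mertk and Mrc1) were under it on all 6. In experiment 1, Mrc1 was above its limit of 2203 on all 3 arrays, at 4770 in CIITA-/- and 2565 in IAb-/- against 8051 in B6 cells. Adgre1 read 1937 in CIITA-/- and 2330 in IAb-/- against 3798 in B6 cells, so B6 was highest for both. B6 was also highest there for Cd68, Csf1r and the brighter Msr1 probe set. Other markers went the other way. The brighter Fcgr1 probe set read 4767 in CIITA-/- and 5401 in IAb-/- against 4371 in B6 cells. Lyz2 was highest in CIITA-/- cells (47497 against 44081 in B6) and Cd14 in IAb-/- cells (18658 against 12008 in B6). In experiment 1, where Ctsd was higher in both mutants too, the median macrophage marker differed by log2 -0.09 and -0.25. Neutrophil markers summed to 8588 to 10042 in CIITA-/- and 10808 to 11956 in IAb-/- against 7598 to 8638 in B6 cells. The sum was thus higher in IAb-/- cells on the deposited scale, but most of its markers were not. Of 7 tested, 2 read higher and 5 lower in IAb-/- than in B6 cells, with a median of log2 -0.03. Camp and Ly6g, each above the noise limit on some arrays, differed by log2 -0.43 and -0.00. The list also holds Lcn2, a granule protein that macrophages can also make. It read 2595 and 2955 in CIITA-/- and 6575 and 4726 in IAb-/- against 1970 and 1704 in B6 cells. Its log2 differences were 0.60 and 1.61, with unadjusted limma p of 0.046 and 0.001 and adjusted p of 0.85 and 0.41. Elane, Mpo, Ngp, S100a8 and S100a9 stayed under the noise limit on all 6 arrays. The part of other cell types in the protease values was not tested.

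The mean log2 level of the 9 genes above the noise limit on all 9 arrays, centred within experiment, was 0.08, -0.05 and 0.02 on the CIITA-/- arrays of experiments 1, 2 and 3, 0.05, 0.12 and 0.03 on the IAb-/- arrays and -0.13, -0.07 and -0.04 on the B6 arrays. B6 was thus lowest in each experiment on the deposited scale. The mean was not spike-in scaled. Spike-in controls stood at log2 -0.10, -0.08 and -0.08 on the B6 arrays, against 0.15, 0.08 and 0.04 on the CIITA-/- arrays. On the IAb-/- arrays they stood at -0.05, 0.44 and -0.41. The genes did not move as one: correlations between them over the 9 arrays ran from 0.92 (Cst3 with Ctss) to -0.62 (Ctsc with Cst3). Among 2556 other probe sets above the limit on all 9 arrays, those most like this mean were Afg3l1 (Pearson r = 0.96), Emp3 (0.935), Mt2 and Cdkn1a (0.929 each) and Nfe2l1 (0.927). These values describe 9 arrays whose spike-in levels and bright end differed.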

How the data were processed

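RNA of day 10 dendritic cells was measured on 9 Affymetrix arrays, 3 each of CIITA-/-, IAb-/- and B6 mice. The deposited values are intensity per probe set on a linear scale; no source used here states which algorithm the authors used, and the labels refer to a paper for RNA work. Gene names come from the platform annotation. The members and lists were chosen with earlier results of these data known.

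Within the 6 arrays of experiments 2 and 3, values under the 30th percentile (123.5; 93.2 in experiment 1) were raised to that floor before the log2 step, and 9312 of 12422 non-control probe sets (those exceeding the floor on 2 or more arrays) were fitted with limma 3.58.1 in R 4.3.3 (lmFit, eBayes; 3 groups, no block), adjusted by Benjamini-Hochberg over all of them. Flooring understates changes of dim probe sets. Experiment 1 entered as within-experiment differences and, in 1 alternative fit, with the other 6 arrays. Spearman correlations between arrays lay between 0.946 and 0.971 in experiments 2 and 3 and between 0.931 and 0.933 in experiment 1, so no array repeats another. Spike-in scaling set 9 control probe sets to a common mean. Every probe set of the 10 genes is described, and at most 4 genes per pathway list are named, those with the smallest unadjusted p in any comparison among genes above the noise limit on at least 1 array; single cell type markers were picked after their values were seen. The fit was tested on simulated data. The number of arrays limits the precision. The titles call the shared number an experiment, without saying what such arrays share; deviations of same-numbered arrays correlated at 0.048 (CIITA-/- with B6), 0.079 (IAb-/- with B6) and 0.215 (CIITA-/- with IAb-/-). Figures used Python 3.11.15 with matplotlib 3.10.9.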

Additional observations from a re-analysis of the deposited data

How the results depend on the processing

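In every setting tried, limma called 0 of the probe sets of these 10 genes in each comparison; the lowest adjusted p over the alternatives was 0.34 for CIITA-/- minus B6, 0.40 for IAb-/- minus B6 and 0.44 for CIITA-/- minus IAb-/-. The number of all probe sets called, 9, 1 and 2 in these comparisons, was small and moved with the setting: 3, 0 and 4 with the floor at the noise limit, 5, 0 and 2 with a generalised log, 14, 5 and 7 without the filter, 10, 3 and 3 with quantile normalization, 9, 2 and 7 with spike-in scaling, and 1, 0 and 0 with only the 2 groups compared. With the experiment number as a replicate block it was 0, 0 and 0 on 6 arrays (606, 491 and 492 at an unadjusted p under 0.05) and 4, 0 and 3 on 9 arrays. The 9-array block with spike-in scaling, chosen after seeing the data, gave 4, 0 and 4. Leaving out 1 array gave 0 to 1, 0 to 0 and 0 to 1; with 1 array left in a group, that array is assumed to vary like the others. The block changed no call of the 10 genes. Of their 45 differences, 13 changed sign with spike-in scaling, 5 with quantile normalization and, of 36, 14 in the 9-array block; only Ctsl in CIITA-/- minus B6, log2 -0.21, was over 0.2 in size, and it became 0.02 in that block. The cause was not tested. Signals under the noise limit, Ctsk among them, carry no reliable level.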
